A study of Mus musculus with 13 samples.

Results

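Ndrg4, Art3 and Sel1l3 are 3 of the 16390 mouse genes with a named probe on the arrays of this series, each read by 1 probe. They were chosen by their measured levels in induced cardiomyocyte-like cells (iCMs): all 3 lay far higher in both serum-free media than in serum-containing medium. The differences between those media are therefore given as a description and carry no test. Their levels in the other cells and in the hearts, their change with time and the difference between the serum-free media were not used to choose them.

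The study compared media for turning fibroblasts into iCMs, with 13 single-colour arrays and 1 array in each group. The GMT iCMs, transduced with GMT (by convention Gata4, Mef2c and Tbx5) and sorted for the aMHC-GFP reporter, were measured at 2 and at 4 weeks. At each time they came from medium with serum (FBS), medium without serum (SF) or medium with the growth factors FGF2, FGF10 and VEGF (FFV). FFV is treated here as a medium without serum, as the choice of the genes implies. Further iCMs were GMTMM iCMs made from tail-tip fibroblasts (TTFs) in FBS or in FFV (GMT with, by convention, Myocd and Mesp1) and MT iCMs in FFV (Mef2c and Tbx5). The reference samples were mouse embryonic fibroblasts (MEFs), TTFs, the embryonic heart (E12) and the newborn heart (P1). The time in culture and the sorting of the GMTMM and MT iCMs, and the number of animals or cultures behind an array, are missing from the labels. The starting cell of the MT iCMs is missing as well. The aMHC-GFP reporter selects cells with an active cardiac myosin promoter, whereas the hearts are whole tissue with other cell types, so a level there cannot be split into the number of cells of a type and the RNA per cell.

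Ndrg4 belongs to the N-myc downstream-regulated gene family, proteins with an alpha/beta hydrolase fold but without a known hydrolase activity. It is expressed mainly in heart and brain, and in zebrafish it is needed for the growth of the heart muscle. Art3 belongs to the ecto-ADP-ribosyltransferases, enzymes anchored at the cell surface that attach ADP-ribose to arginine, although Art3 itself lacks the active-site motif of its relatives. Sel1l3 is a relative of Sel1l, the adaptor of a ubiquitin ligase that removes misfolded proteins from the endoplasmic reticulum. Serum carries growth factors that switch on immediate early genes and the actin cytoskeleton through SRF, so its removal is a common way to take cells out of the cell cycle.

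Promoter sequences are shown for Ndrg4 and Art3, and for Gins3 and Setd6, the measured genes on either side of Ndrg4, because the levels of these neighbours moved with Ndrg4 (given further on). The RefSeq table (build GRCm38.p6) held 2 of the 3 genes, and Sel1l3 is named only. Each sequence runs 5' to 3' from 250 bases before to 50 bases after the gene's most upstream listed start, and capitals mark the T-box matches.
Ndrg4 promoter, chr8:95676724-95677023, plus strand: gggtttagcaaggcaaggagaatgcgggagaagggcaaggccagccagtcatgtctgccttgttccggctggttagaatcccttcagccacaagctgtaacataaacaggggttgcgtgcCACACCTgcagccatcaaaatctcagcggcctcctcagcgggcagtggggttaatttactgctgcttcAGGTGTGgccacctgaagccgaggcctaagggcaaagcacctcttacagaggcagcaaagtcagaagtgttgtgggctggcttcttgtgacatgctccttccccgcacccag
Art3 promoter, chr5:92331577-92331876, plus strand: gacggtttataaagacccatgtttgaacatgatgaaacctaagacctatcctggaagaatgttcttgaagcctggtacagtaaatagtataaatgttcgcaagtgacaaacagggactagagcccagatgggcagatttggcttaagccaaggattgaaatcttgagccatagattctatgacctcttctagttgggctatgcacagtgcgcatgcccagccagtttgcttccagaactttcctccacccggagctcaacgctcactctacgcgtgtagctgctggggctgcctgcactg
Gins3 promoter, chr8:95633309-95633608, plus strand: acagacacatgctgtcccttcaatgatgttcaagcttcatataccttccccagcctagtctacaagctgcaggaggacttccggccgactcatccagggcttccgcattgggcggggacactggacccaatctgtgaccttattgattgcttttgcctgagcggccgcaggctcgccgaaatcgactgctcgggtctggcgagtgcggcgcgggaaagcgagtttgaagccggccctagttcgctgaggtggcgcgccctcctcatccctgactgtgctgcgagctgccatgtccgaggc
Setd6 promoter, chr8:95715663-95715962, plus strand: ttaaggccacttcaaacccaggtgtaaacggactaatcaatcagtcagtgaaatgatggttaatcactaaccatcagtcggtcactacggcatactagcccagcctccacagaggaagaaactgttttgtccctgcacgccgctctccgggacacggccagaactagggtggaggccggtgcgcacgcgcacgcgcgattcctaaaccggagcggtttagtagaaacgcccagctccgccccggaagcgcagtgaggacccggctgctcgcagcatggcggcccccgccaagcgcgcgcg
Both strands were searched for the GATA motif AGATAA, the T-box motif AGGTGTG, the FoxO motif GTAAACA, the MEF2 box and the CArG box of SRF. The Ndrg4 promoter held 2 T-box matches, at bases 121 to 127 on the reverse strand and at bases 189 to 195 on the forward strand. T-box letters occurred in 5.84% of all 32851 promoters in the table. The GATA motif occurred in 11.2%, the FoxO motif in 3.65%, the MEF2 box in 1.86% and the CArG box in 1.63% of them. None of these motifs was found in the other 3 Ndrg4 windows, the 3 Art3 windows, or those of Gins3 and Setd6. A match is only a match of letters, and binding was not measured.

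Levels are log2 of the spot signal after background correction and quantile normalisation, and the lowest level on any array was 5.65. To count as well above background a spot had to be at least 2 SD brighter than the mean of its array's blank spots, which 78.4% to 91.5% of the probes were. All 3 genes passed this on all 13 arrays. The arrays carry numbers of 3 series, the first with the GMT iCMs and the E12 heart, another with the MEFs and the P1 heart, and the third with the TTFs, GMTMM and MT iCMs. The blank mean was 39.9 to 41.1 scanner units in the third series and 13.1 to 15.4 in the others. A difference between cells that lie in different series cannot be told apart from one between series. The 9 cardiomyocyte marker genes summed to 82089 to 119975 scanner units above the blanks in the GMT iCMs and to 83793 and 111151 in the hearts. The sum hides differences between genes, since Pln, Actn2, Myh6 and Nppa were lower on every GMT array than in both hearts. Only Myl7 was higher on every GMT array than in both hearts, and the other genes of the list overlapped. Pln was at 6.02 to 6.16 log2 beside 11.46 (E12) and 13.27 (P1), and Myl7 at 15.31 to 15.69 beside 15.18 and 14.35. The sum was only 2304 and 537 in the GMTMM iCMs in FFV and FBS, 13023 in the MT iCMs, and 174 and 85.8 in the MEFs and TTFs.

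Ndrg4 was at fibroblast level in GMT iCMs kept in serum and lay far above the hearts without it. In FBS its log2 level was 8.15 at 2 weeks and 7.60 at 4 weeks, beside 7.85 in MEFs. In SF it was 12.04 at 4 weeks and 0.04 lower at 2 weeks, and in FFV it was 11.82 at 2 weeks and 11.62 at 4 weeks. The 4 arrays without serum lay within 0.42 of one another and did not overlap with the FBS arrays. Against the FBS array of the same week the level was 14.4-fold and 21.7-fold higher in SF, and 12.7-fold and 16.2-fold higher in FFV. In signal above the blanks the step was from 260 and 163 scanner units in FBS to 3046 to 4217 without serum, so neither side was near the blanks. The P1 heart (10.27) and the E12 heart (9.83) fell between these groups, as did the MT iCMs (9.89). The GMTMM iCMs in FFV (8.04) and in FBS (8.01) and the TTFs (8.39) lay with the FBS arrays.

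Art3 was already well expressed in GMT iCMs in serum and was higher again without it. Its log2 level in FBS was 9.30 at 2 weeks and 10.51 at 4 weeks. In SF it was 12.48 and 12.55, and in FFV 12.46 and 12.78. Every array without serum lay above both FBS arrays, and the gap was narrower at 4 weeks, when the FBS array itself was 2.31-fold higher than at 2 weeks. The differences were 9.06-fold and 4.11-fold for SF at 2 and 4 weeks, and 8.91-fold and 4.82-fold for FFV. The P1 heart (10.66) matched the 4-week FBS array within the spread, and the E12 heart (7.62) lay lower than every GMT array. Art3 was barely measurable in MEFs (5.86), TTFs (5.88) and GMTMM iCMs (6.10 in FFV and 6.06 in FBS). There its spot was 6.06 to 13.8 scanner units above the blanks, beside 5599 to 6595 in the GMT iCMs without serum. MT iCMs stood between, at 8.20.

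Sel1l3 was higher without serum as well, and it was the one gene of the 3 whose level in the hearts was near the blanks. The probe is listed under the older symbol 2310045A20Rik, which RefSeq gives as a synonym of Sel1l3. In GMT iCMs its log2 level was 7.71 and 7.76 in FBS, 9.87 and 10.31 in SF, and 9.42 and 10.07 in FFV at 2 and 4 weeks. The groups did not overlap, with differences of 4.48-fold and 5.87-fold for SF and of 3.26-fold and 4.95-fold for FFV. The P1 heart was lowest of all 13 arrays (5.80), with a spot only 3.69 scanner units above the blanks, and the E12 heart was at 6.42. The fibroblasts were similarly low, at 6.08 in MEFs and 5.91 in TTFs. Among the other iCMs Sel1l3 reached 7.66 in GMTMM iCMs in FFV and 7.40 in MT iCMs, but 5.91 in GMTMM iCMs in FBS.

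**Figure D1:**
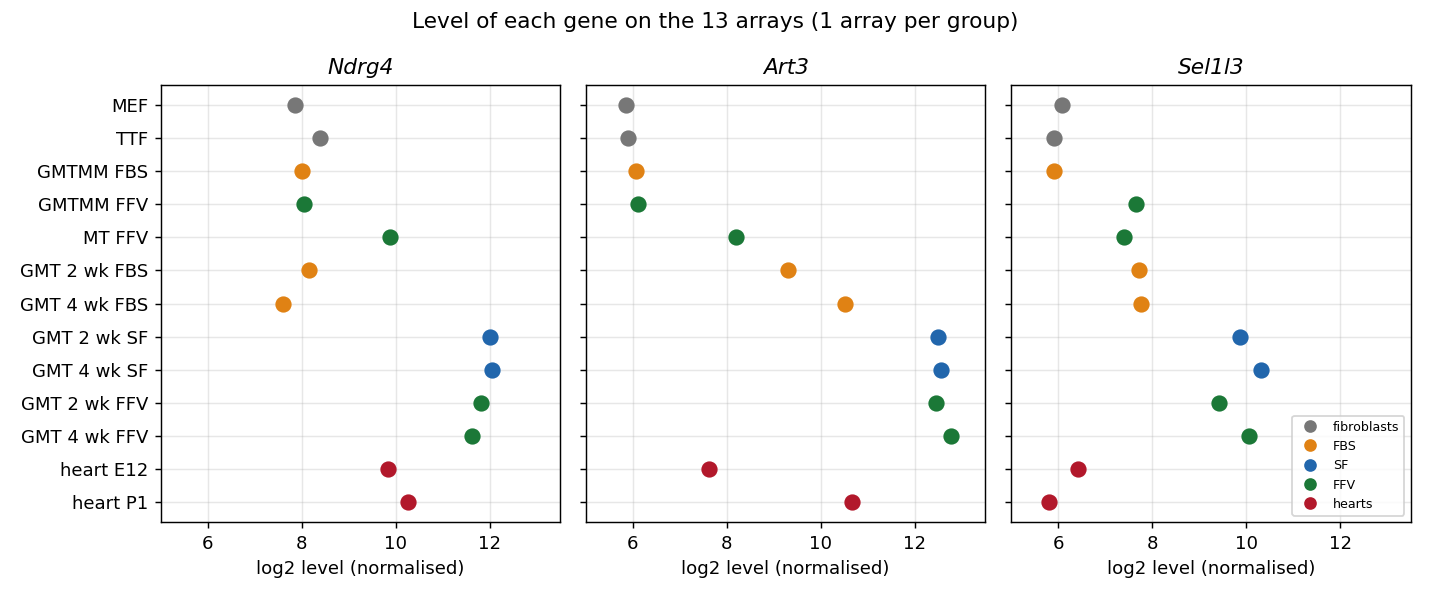
Log2 level (normalised) of Ndrg4, Art3 and Sel1l3 on the 13 arrays, 1 point per array, coloured by fibroblast, medium or heart. The 4 GMT arrays in SF or FFV are the highest for each gene, at 11.62 to 12.04, 12.46 to 12.78 and 9.42 to 10.31.

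Neighbours in the order of levels were compared with the spread. The spread was the square root of 2 times the moderated residual SD from limma over the 6 GMT arrays. Moderation draws the gene's own SD towards the mean-variance trend of all genes. This spread was 0.24 log2 for Ndrg4, 0.38 for Art3 and 0.23 for Sel1l3. It is the SD of a difference between arrays, so steps somewhat beyond it can arise without a true change. The spread holds no scatter between array series, and a step that exceeds it is not a test result. For Ndrg4 4 of the 12 steps exceeded it: below the GMT arrays without serum, between the P1 heart and the MT iCMs, between the E12 heart and the TTFs, and between MEFs and the 4-week FBS array. The TTFs, the 2-week FBS array, both GMTMM arrays and the MEFs formed a run in which no neighbours differed beyond the spread. For Art3 5 steps exceeded it, and the 4 arrays without serum, the P1 heart with the 4-week FBS array, and the 4 lowest arrays each held together. For Sel1l3 6 steps exceeded it, and both FBS arrays of the GMT iCMs held together with the GMTMM iCMs in FFV. The whole range was 21.7-fold for Ndrg4, 121-fold for Art3 and 22.8-fold for Sel1l3, and the offset of 50 added in the background correction compresses these folds at the low end.

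Among 15037 genes measured in the GMT iCMs, ranked by the smallest of their 4 differences from FBS, Ndrg4 was 1st with 3.67 log2, Art3 4th with 2.04 and Sel1l3 9th with 1.70. The median gene stood at -0.06. Of all 15420 genes above background in these arrays, 0.24% (37) were at least 2-fold higher in all 4 pairs. The 3 genes were among them, having been chosen as far higher in both serum-free media. Only 4 genes were at least 4-fold higher in all 4 pairs and only Ndrg4 at least 8-fold. The genes next to them in rank were Tcp11x2 (2.91) and Corin (2.44) above Art3, Myl1 (1.91) below it, Lin7a (1.74) above Sel1l3 and Gins3 (1.70) below it. Corin is the protease that activates natriuretic peptides, Myl1 a fast skeletal muscle myosin light chain and Gins3 a subunit of the GINS complex of the replication fork. The ranks of Art3 and Sel1l3 depend on how dim signals are treated: with an offset of 16 they were 10 and 14, and with a floor on the blank-subtracted signal 18 and 21. Ndrg4 was 1 or 2 under every setting tried.

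**Figure D2:**
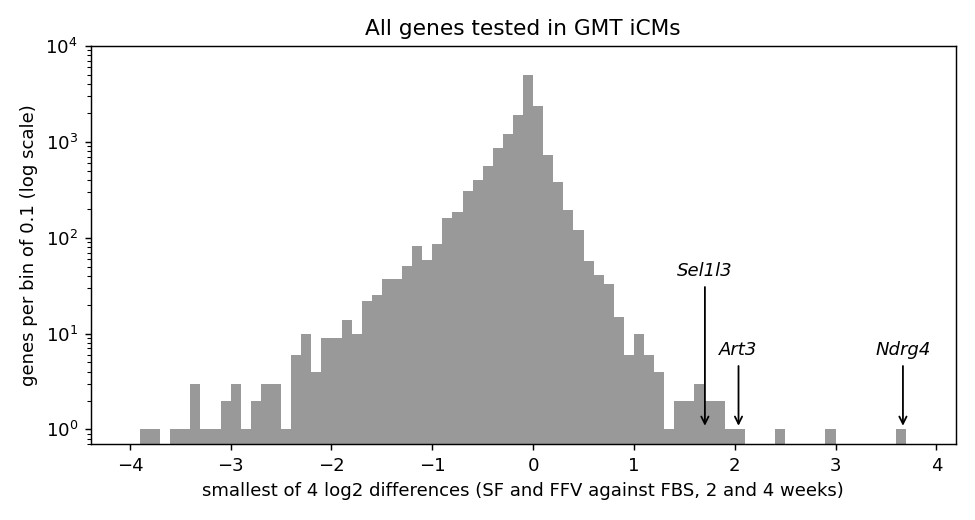
Histogram of the smallest of 4 log2 differences (SF and FFV against FBS at 2 and 4 weeks) over 15037 genes in bins of 0.1, with a log scale for the number of genes. Arrows mark Ndrg4 at 3.67, Art3 at 2.04 and Sel1l3 at 1.70, all at the right end of a distribution centred near 0.

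The 10 other genes at the top of this ranking were Tcp11x2, Corin, Myl1, Acss1, Hlx, Lin7a, Gins3, Thsd7a, Smarca1 and Kcnj15. They differed among themselves in where else they were expressed. Corin, like Ndrg4 and Art3, was far higher in the E12 and P1 hearts (8.40 and 9.32) than in MEFs (5.73). Tcp11x2 was at 5.77 and 5.84 in the hearts and 5.81 in MEFs, near the lowest level on the arrays, and 9.68 to 10.89 in GMT iCMs without serum. In all, 3 of these 10 genes were at least 2-fold higher in the P1 heart than in MEFs, and 2 of 10 in the E12 heart, beside 6.13% of 15470 and 5.7% of 15533 genes. Lin7a, a scaffold protein of cell junctions, was near the lowest level in the FBS arrays too (5.83 and 5.84) and at 7.57 to 8.60 without serum. Hlx, a homeobox factor, was higher in the MT iCMs (9.90) than in the hearts (6.96 and 7.90).

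Time and the choice of serum-free medium could be tested, with limma on the 6 GMT arrays (medium and week as terms, 2 residual degrees of freedom, adjusted over 15037 genes). Between 4 and 2 weeks 0% of the genes passed, with 1320 genes at an unadjusted p under 0.05. Ndrg4 differed by -0.24 ± 0.14 log2 (SE, 4 minus 2 weeks, limma adjusted p = 0.647), and was lower at 4 weeks in FBS and FFV and 1.03-fold higher in SF. Art3 differed by 0.53 ± 0.22 (limma adjusted p = 0.565) and was higher at 4 weeks in all 3 media, most in FBS. Sel1l3 differed by 0.38 ± 0.14 (limma adjusted p = 0.55) and was also higher in all 3 media. Between FFV and SF, too, 0% of the genes passed, with 1430 at an unadjusted p under 0.05. Ndrg4 differed by -0.30 ± 0.17 (FFV minus SF, limma adjusted p = 0.645) and Sel1l3 by -0.35 ± 0.17 (limma adjusted p = 0.579), both lower in FFV at both weeks. Art3 differed by 0.10 ± 0.27 (limma adjusted p = 0.932), with opposite signs at 2 and 4 weeks, and its mean turned to -0.022 under median scaling. None of the 3 genes thus passed after adjustment in either comparison, which with so few arrays does not show that they were equal. The unadjusted limma p for time was 0.0491 for Art3 and 0.0288 for Sel1l3, and for FFV against SF it was 0.0755 for Sel1l3.

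The GMTMM iCMs asked whether the pattern held in another reprogramming, as 1 FFV array and 1 FBS array with no test. At least 2-fold higher in FFV were 1 of the 3 genes and 1.88% of 14788 genes. This gene was Sel1l3, with 7.66 in FFV and 5.91 in FBS, a difference of 1.75 log2 or 3.37-fold. Its FBS level was within 5.87 scanner units of the blanks, and the difference ran from 1.24 with the local surround subtracted to 4.19 in the deposited table. Ndrg4 differed by 0.03 and Art3 by 0.04, both less than their spread in GMT iCMs. Neither gene stood above the TTFs in these cells by more than its spread. Of the 10 other top genes only Myl1 was at least 2-fold higher, by 3.30 log2.

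**Figure D3:**
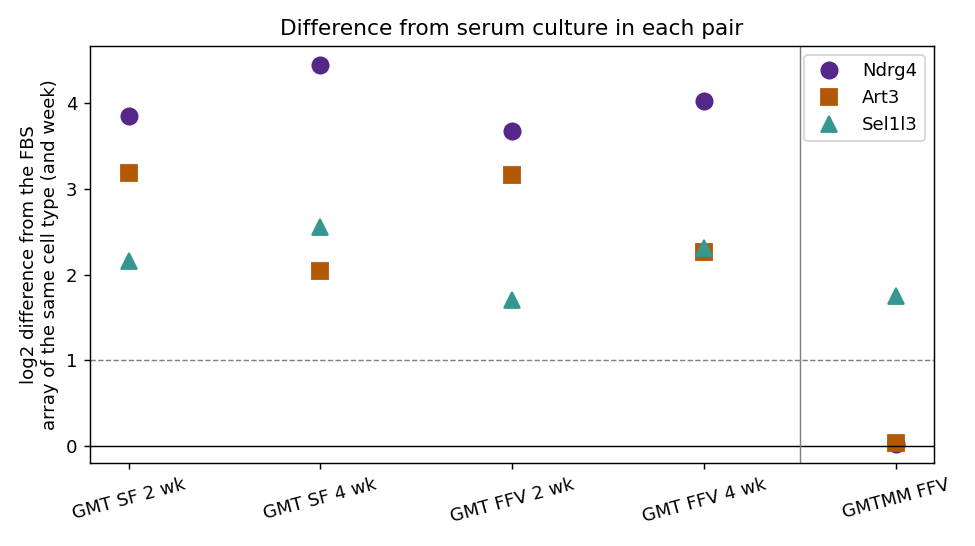
Log2 difference from the FBS array for each pair of single arrays, with GMT iCMs on the left and GMTMM iCMs on the right of the vertical line; the dashed line marks 2-fold. All 3 genes are between 1.70 and 4.44 in the GMT pairs, and only Sel1l3 (1.75) is off 0 in the GMTMM pair.

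MT iCMs in FFV were compared with MEFs and with GMT iCMs in the same medium, across array series. The MEFs serve as a reference only, because the labels do not say from which cells the MT iCMs were made. All 3 genes were at least 2-fold higher in MT iCMs than in MEFs, as were 4.81% of 15288 genes. The differences were 2.03 log2 for Ndrg4, 2.34 for Art3 and 1.32 for Sel1l3. These sizes rest on the background correction, since with the local surround subtracted they were 0.21, 1.24 and 0.17. GMT iCMs in FFV were higher than MT iCMs by 1.94 and 1.73 log2 for Ndrg4 at 2 and 4 weeks, by 4.26 and 4.58 for Art3 and by 2.02 and 2.67 for Sel1l3. With the local surround subtracted the mean excess was 3.40 for Ndrg4 and 1.58 for Sel1l3. All 3 genes were at least 2-fold higher at both weeks, as were 1.92% of 15386 genes. These GMT arrays are among those that chose the genes. Relative to GMT iCMs in FBS, MT iCMs were 3.32-fold and 4.86-fold higher in Ndrg4 and 2.15-fold and 4.97-fold lower in Art3.

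The hearts and fibroblasts show where the 3 genes are expressed without reprogramming. In both hearts 2 of the 3 genes, Ndrg4 and Art3, were at least 2-fold higher than in MEFs, as were 2.65% of 15668 genes. Ndrg4 was higher by 1.98 log2 at E12 and 2.42 at P1, and Art3 by 1.76 and 4.81. Sel1l3 stood at 0.34 and -0.28 from MEFs, and with the local surround subtracted the E12 difference was -0.01. Between the hearts Art3 was 8.25-fold higher at P1 than at E12 in these single arrays, the one gene of the 3 that was at least 2-fold higher at P1, as were 4.66% of 15508 genes. Ndrg4 was 1.35-fold higher at P1. Sel1l3 was lower at P1 by a size that the background treatment sets, since its P1 spot was near the blanks: the difference was -0.61 log2 here, -0.05 with the local surround subtracted, -1.24 with an offset of 16 and -3.07 with a floor.

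GMT iCMs without serum lay above both hearts for all 3 genes. All 4 arrays without serum were at least 2-fold above the E12 heart for each gene, as was the case for 4.22% of 15579 genes. They were also at least 2-fold above the P1 heart, as for 4.24% of 15562 genes. The SF and FFV arrays are the ones on which the genes were chosen, so nothing is read from these counts. For Ndrg4 the excess over the P1 heart was 2.55-fold to 3.43-fold, for Art3 3.47-fold to 4.34-fold, and for Sel1l3 12.2-fold to 22.8-fold against a heart level near the blanks. In FBS the order differed between genes: Ndrg4 was 4.33-fold and 6.33-fold below the P1 heart, Art3 2.57-fold and 1.11-fold below it, and Sel1l3 3.75-fold and 3.89-fold above it. Against MEFs 2 of the 3 genes, Art3 and Sel1l3, were at least 2-fold higher in all 6 GMT arrays, as were 1.98% of 15594 genes. For Sel1l3 the mean excess of the FBS arrays over MEFs, 1.66 log2, was 0.28 with the local surround subtracted.

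The chromosome neighbours of the 3 genes were then read, a comparison chosen after values were seen. Gene order was taken from RefSeq GRCm38.p6. Ndrg4 lies on chromosome 8 between Gins3 and Setd6, a lysine methyltransferase, and the 3 genes point the same way. Gins3 was at 6.27 and 6.14 in FBS at 2 and 4 weeks, 8.69 and 8.86 in SF, and 7.97 and 8.30 in FFV. Setd6 was at 7.49 and 7.26 in FBS, 8.65 and 8.96 in SF, and 8.18 and 8.74 in FFV. All 4 arrays without serum lay above both FBS arrays for either gene. How many of all genes had the 4 arrays without serum above both FBS arrays was not counted. A small rise in all 4 pairs was common, since 2341 of 15037 genes had a smallest difference between 0 and 0.1 log2. A rise of at least 2-fold in all 4 pairs was seen for 0.24% of 15420 genes, with Gins3 among them and Setd6 not. By limma Gins3 rose by 2.57 ± 0.14 log2 (SE, adjusted p = 0.00146) in SF and by 1.93 ± 0.14 (adjusted p = 0.00647) in FFV. Gins3 had ranked 10 by these same differences, so its p-values, here and below, are a description and give no support. Setd6 rose by 1.43 ± 0.19 (limma adjusted p = 0.0112) in SF and by 1.09 ± 0.19 (limma adjusted p = 0.0363) in FFV. In the hearts, fibroblasts, GMTMM and MT iCMs Gins3 was between 6.25 and 6.66, and Setd6 between 6.81 and 7.95, whereas Ndrg4 was higher in both hearts and the MT iCMs than in the fibroblasts.

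Of the 8 measured neighbours of Ndrg4, 2 rose and 1 fell in SF. The latter was Cdh11, a cadherin of mesenchymal cells, at -1.40 ± 0.13 (limma adjusted p = 0.00456). In FFV 2 of 8 rose, and none of the 8 fell. Over all 15037 genes, 5.04% rose and 5.96% fell in SF, and 1.77% rose and 2.35% fell in FFV. Of the 10 neighbours of Art3 on chromosome 5, only Stbd1, a glycogen-binding protein, rose in SF (0.54, limma adjusted p = 0.0124). The chemokine genes Cxcl10 and Cxcl11, which overlap Art3, did not pass (-0.14 and 0.10). Of the 8 neighbours of Sel1l3 on chromosome 5, only Smim20 rose in SF, by 0.79 ± 0.13 (limma adjusted p = 0.0184), and it did not pass in FFV (0.51, limma adjusted p = 0.0846).

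**Figure D4:**
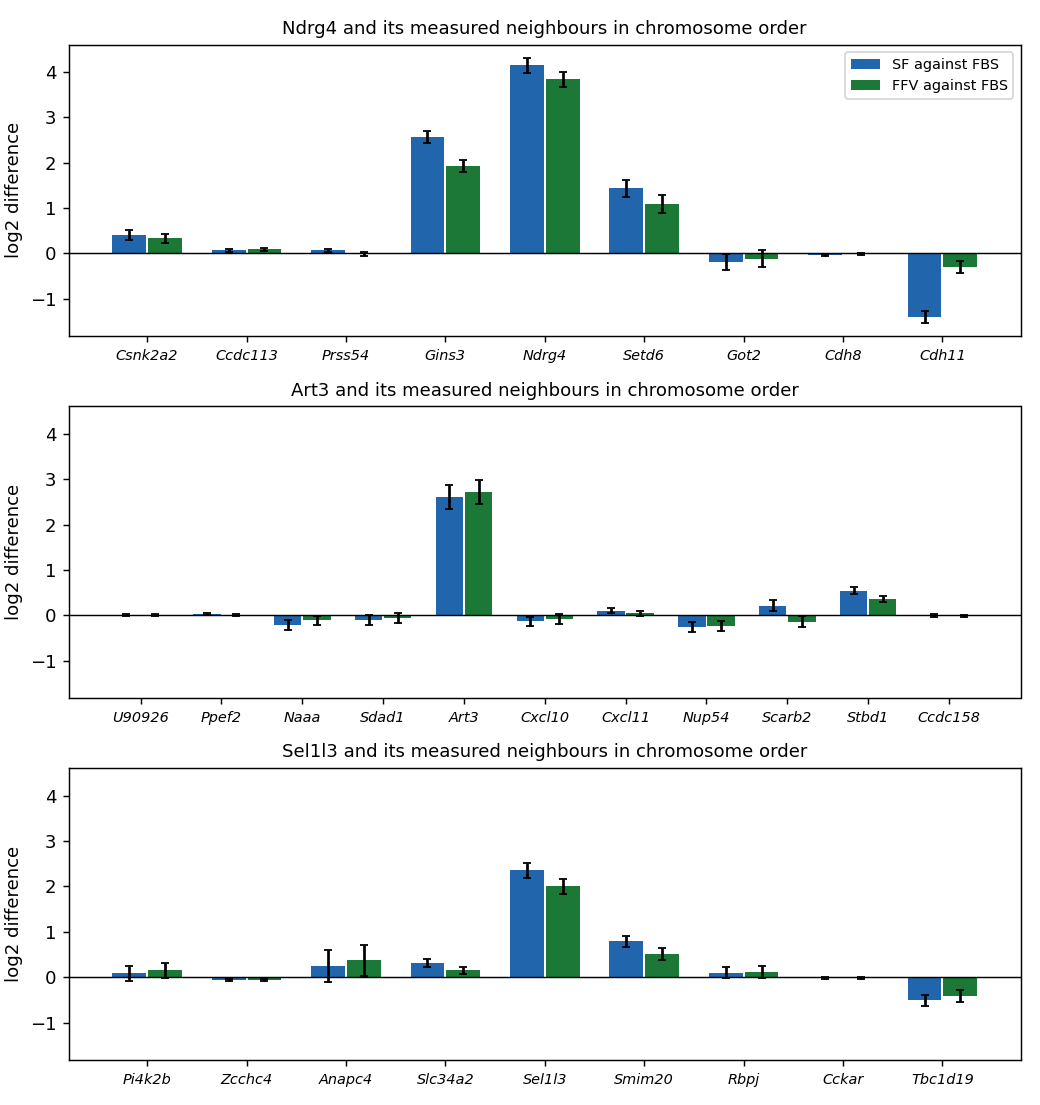
Fitted log2 difference from FBS in SF (blue) and FFV (green) for each gene and its measured neighbours in chromosome order, with bars for the SE of the limma fit on 6 GMT arrays. Gins3 (2.57 in SF) and Setd6 (1.43) flank Ndrg4, whereas the neighbours of Art3 and Sel1l3 stay within 0.79 above 0; the 3 chosen genes are shown as a description.

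The number of calls against FBS depended on how the data were processed, and some background treatments left none. Of the 1654 calls in SF (758 higher and 896 lower) and the 620 in FFV (266 higher and 354 lower), none was made with a floor on the blank-subtracted signal or with the local surround subtracted (0 by limma in each). Other treatments kept calls: an offset of 16 gave 1791 in SF and 706 in FFV, and the intensities deposited by the authors gave 1945 and 811. Under median scaling the SF calls numbered 3260, of which 2064 were higher. With a floor the adjusted p of Gins3 was 0.0593 and that of Setd6 0.0872 in SF, although their differences were larger, 4.14 and 1.80. With the local surround subtracted they were 0.91 (limma adjusted p = 0.113) and 1.37 (limma adjusted p = 0.116). Without the mean-variance trend 639 genes were called in SF and 1 in FFV, and the adjusted p was 0.0612 for Setd6 in SF and 0.0642 for Gins3 in FFV. Ube2j1, a gene described next, had an adjusted p of 0.0545 in FFV under median scaling. The counts at an unadjusted p under 0.05 in the settings reported here were 4448 in SF and 3364 in FFV.

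No relative of Ndrg4 or Art3 passed the test in the settings reported here, although under median scaling 2 of the 3 other NDRG genes were called lower in SF. The 3 relatives of Ndrg4 differed in sign: Ndrg2 stood at -0.85 ± 0.24 (limma adjusted p = 0.0727), Ndrg1 at -0.34 and Ndrg3 at 0.40. Of the 6 ecto-ADP-ribosyltransferase genes 3 were measured, and the relatives Art1 (0.12) and Art4 (0.06) did not pass. Sel1l itself stood at -0.19. Among 15 other genes of Sel1l and of protein removal from the endoplasmic reticulum, only Ube2j1, a membrane-anchored ubiquitin-conjugating enzyme, rose. It rose by 0.92 ± 0.12 in SF (limma adjusted p = 0.011) and by 0.64 ± 0.12 in FFV (limma adjusted p = 0.0454). Thus 1 of 15 was called higher in each medium, beside 5.04% of all genes in SF and 1.77% in FFV. Under median scaling 1 of these 15 genes was called higher and 4 lower in SF, and 0 higher and 1 lower in FFV. Over all 15037 genes that scaling called 2064 higher and 1196 lower in SF, and 422 higher and 439 lower in FFV. In the settings reported here the median of the 15 genes was -0.12 in SF and -0.19 in FFV, beside 0.01 and 0.00 over all genes.

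Other gene groups give the setting in which the 3 genes were higher, in SF and FFV against shared FBS arrays. Of 23 sarcomere genes 7 rose and 2 fell in SF, and 6 rose and 1 fell in FFV, with medians of 0.24 and 0.40. Over all genes the shares were those given above, 5.04% higher and 5.96% lower in SF and 1.77% and 2.35% in FFV. Under median scaling 10 sarcomere genes were called higher and 1 lower in SF, beside 2064 higher and 1196 lower of all 15037 genes. Myoz2, a Z-disc protein, rose by 1.74 ± 0.15 (limma adjusted p = 0.00363) in SF, and titin (Ttn) by 1.42 ± 0.18 (limma adjusted p = 0.00988). Tnni1, the slow skeletal troponin I of the embryonic heart, fell by 1.36 in SF and by 0.72 in FFV. Of 23 serum response and immediate early genes 5 fell and 2 rose in SF, against 0 and 1 in FFV, with medians of -0.45 and 0.04. Jun fell by 1.80 ± 0.23 (limma adjusted p = 0.00985) in SF and stood at 0.05 in FFV, and Fos fell by 1.46 in SF and stood at 0.22.

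Of 20 growth arrest and FoxO target genes 1 rose and 3 fell in SF, and 0 rose and 2 fell in FFV, beside the same all-gene shares of 5.04% and 5.96% in SF and 1.77% and 2.35% in FFV. Under median scaling 2 were called higher and 5 lower in SF, and 1 higher and 4 lower in FFV. Over all 15037 genes that scaling called 2064 higher and 1196 lower in SF, and 422 higher and 439 lower in FFV. Gadd45a, a growth arrest gene, fell by 1.32 and Ccng2, a cyclin of resting cells, by 0.71 in SF. Of 14 sterol synthesis genes 0 passed in either medium, with medians of 0.02 and -0.09.

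Some markers of other cells were also called in SF or FFV against FBS, and their part in the levels of the 3 genes was not tested. Over all genes the shares were again 5.04% higher and 5.96% lower in SF, and 1.77% and 2.35% in FFV. Of 10 fibroblast markers 4 fell in SF and 1 in FFV. Their summed signal was 7555 and 13333 scanner units in FBS, 5756 and 4136 in SF, and 8065 and 14134 in FFV. Thy1, a fibroblast surface protein, fell by 3.21 in SF and by 2.00 in FFV, the largest fall of the list. The median of the 10 fibroblast markers was -0.90 in SF but 0.13 in FFV. Of 10 macrophage markers 2 fell in SF and 0 in FFV, and the sum was 654 and 2697 in FBS, 270 and 279 in SF, and 296 and 272 in FFV. C1qa and C1qb were near the lowest level in every array without serum (5.76 to 5.92). Of 14 tested skeletal muscle markers 2 rose and 2 fell in SF, and 2 rose in FFV. Their sum was 2518 and 3079 in FBS, 5908 and 9890 in SF, and 8196 and 10721 in FFV. Myl1 carried most of this (10.31 and 10.85 in FBS, 12.22 to 13.35 without serum), while the muscle regulators Myog (5.82 to 5.92) and Myf5 (5.74 to 5.78) were near the lowest level on all 6 GMT arrays. Of 11 neuronal markers 1 rose and 1 fell in SF, with sums of 217 and 360 in FBS and 168 to 266 without serum. Of 9 endothelial markers Flt1 rose in both media. Of 7 Schwann cell and 5 epithelial markers 0 passed by limma, but under median scaling 2 and 1 of them were called higher in SF. That scaling also gave more SF calls among the macrophage markers (5 lower) and the endothelial markers (3 higher). The same held for the skeletal muscle markers (5 higher and 3 lower) and the neuronal markers (2 higher and 2 lower). Over all 15037 genes median scaling called 2064 higher and 1196 lower in SF.

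Likeness of pattern was taken as Pearson's r of log2 levels over the 13 arrays, which share serum-free and FBS arrays, and is a description only. Over all arrays r was 0.81 between Ndrg4 and Art3, 0.74 between Ndrg4 and Sel1l3 and 0.82 between Art3 and Sel1l3. Over the 7 arrays that are not GMT iCMs r was 0.90 for Ndrg4 and Art3, but 0.02 and -0.10 for the pairs with Sel1l3. The genes most like Ndrg4 were Nfatc1, a calcineurin-dependent transcription factor (0.93), Ttc7b (0.92), Acss1 (0.91), Pgap3 (0.91) and Nkiras2 (0.91). Those most like Art3 were Bend7 (0.97), Corin (0.97), Ciao3 (0.96), the fatty acid oxidation thiolase Acaa2 (0.95) and the sarcomere formin Fhod3 (0.95). Those most like Sel1l3 were Pcbd2 (0.98), Shld2, Zdhhc5, Kctd9 and the junctophilin Jph1 (0.95 each). Several of these genes moved little: Bend7 ranged from 6.26 in FBS to 6.44 without serum, whereas Acaa2 was at 11.73 and 11.92 in FBS, 11.94 in the P1 heart and 12.28 to 12.66 without serum.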

How the data were processed

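RNA was measured on single-colour arrays of 27456 spots, 2736 of them blank, with 1 array in each of 13 groups. The scanner output holds spot intensity without background subtraction, per the file headers. The intensity table deposited by the authors has an unstated scale: its columns follow the scanner signals (r = 1) with a median of about 25.

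The spot signal was corrected by normexp (offset 50) and quantile normalised, and levels are given as log2 of the result. Of 23473 probes 16631 had 1 gene symbol and 6842 none; 12622 symbols were current, 3947 were updated through RefSeq and 62 had no match. Where a gene had several probes the brightest was used, which gave 16390 genes. Genes well above background on at least 2 of the 6 GMT arrays were tested with limma 3.58.1 in R 4.3.3 (two-sided, mean-variance trend, Benjamini-Hochberg, threshold 0.05), after the fit was tested on simulated data. With 1 array per group, p-values measure the scatter around additive terms for medium and week.

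Named genes are the 3 genes, the 10 next in rank, the 5 most alike of each, their families, and up to 4 members per list. Members and lists were chosen with earlier results of these data known. The settings varied were the scaling (median), the offset (16), a floor, the subtracted local surround, the deposited table, no filter, no trend, and leaving out a medium.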

Additional observations from a re-analysis of the deposited data

How the results depend on the processing

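Each group had 1 array, so no replicate could be left out. The limma fit already pairs the media by week, and no paired analysis by replicate number was possible because no group has replicates. For none of the values below was the cause tested. The number of genes called between SF and FBS (1654) was 3260 under median scaling, 639 without the mean-variance trend, and 0 with a floor or with the local surround subtracted. It was 1791 with an offset of 16 and 1945 from the deposited intensities. Between FFV and FBS (620) it was 1 without the trend, 1091 without the SF arrays, and 0 with a floor or the surround subtracted. There it was 706 with an offset of 16 and 811 from the deposited intensities. Between FFV and SF (0) it was 46 from the deposited table and 120 without the FBS arrays, and between 4 and 2 weeks (0) it was 7 without the SF arrays. The FFV minus SF difference of Art3 turned to -0.022 under median scaling. The rank of Ndrg4 (1) was 2 with a floor and 2 in the deposited table. Art3 (4) was 10 with an offset of 16, 18 with a floor and 19 in the deposited table, and Sel1l3 (9) was 14, 21 and 22. The smallest of the 4 differences was 3.94, 3.09 and 3.94 for Ndrg4 and 2.00, 1.38 and 2.00 for Sel1l3 with a floor, with the surround subtracted and in the deposited table. The GMTMM difference of Sel1l3 (1.75) was 2.69 with an offset of 16, 4.18 with a floor, 1.24 with the surround subtracted and 4.19 in the deposited table. Without the filter on dim genes 0 of 48 results changed direction or side of the threshold or moved beyond the spread or, for counts, 1.5 times, and the calls were 1615 in SF and 621 in FFV. Of 126 other values between arrays, 70 stayed within the spread and 56 moved, among them Ndrg4 in GMT iCMs in FFV against MT iCMs (1.83, and 3.40 with the surround subtracted). Limits: spots near the blanks carry little signal, so the folds of Art3 and Sel1l3 against fibroblasts, and of Sel1l3 against hearts, depend on the offset.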
